A study of Homo sapiens and Mus musculus with 16 samples.

Results

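The loci of 10 ETS transcription factors were followed through 4 lists of accessible regions: ELF3, EHF, ELF5 and SPDEF, whose expression is best known from epithelia, ETS1, ETS2 and ELF1, which are broadly expressed, and ETV1, ETV4 and ETV5, the PEA3 group. They were 10 of 20033 human protein-coding genes and, as orthologs, 10 of 21938 mouse genes. Each locus ran from 50 kb before the gene to 50 kb after it, and every deposited region touching it by 1 bp was a member. The loci held 139 of 118107 regions in HPAF-II control cells, 114 of 97047 in HPAF-II HNF4G-KO cells, 110 of 68074 in KPC primary tumor cells and 130 of 80843 in KPC liver mets cells.

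The regions came from ATAC-seq, in which a transposase tags DNA that nucleosomes leave open, on 16 samples in 4 groups of 4 replicates. HPAF-II is an established human pancreatic adenocarcinoma cell line. Its control cells (Cas9) were labelled WT and CRISPR-Cas9, and its HNF4G-KO cells carried a CRISPR knockout of HNF4G, a nuclear receptor gene. The knockout was made by electroporating Cas9 protein with a guide RNA, and the study worked with clones and with pooled clones, so which of them gave these libraries is not known. The KPC groups were mouse pancreatic cancer cell lines, 1 from a primary tumor and 1 from liver mets, which the study treats as matched. All cells were grown in culture. Each group had 1 deposited list, so no value existed per replicate, no difference below has a replicate check, and read depth is unknown.

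ETS factors share a DNA-binding domain that reads a GGAA core, and members differ mainly in the bases beside it and in the proteins they bind. ELF3, EHF, ELF5 and SPDEF are linked to differentiation of glandular and other epithelia. ETS1, ETS2 and the PEA3 factors respond to RAS-ERK signaling, a growth factor pathway, and PEA3 factors are also known as oncogenic fusion partners.

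A region was called shared where it overlapped the other list of its pair by at least 1 bp, and otherwise was in one list: control-only, KO-only, tumor-only or mets-only. The deposited score has no stated scale, so each region is given by its score percentile, its rank among all regions of its own list from 0 (weakest) to 100 (strongest). Changes in percentile run from the control or primary tumor list to the HNF4G-KO or mets list. Positions are distances of the region center from the main annotated start site, counted along the gene, with minus for upstream.

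The sequences below are reference sequence around regions on which the results turn. Capitals mark matches, on either strand, to HNF4 CAAAGTCCA, FOXA TGTTTAC, AP-1 TGACTCA or TEAD ACATTCCA or to the HNF1 consensus, and a match is a description of letters and no evidence of binding. All are written on the plus strand of hg38 or mm10. The first pair shows the HNF4 match beyond the 3′ end of the gene in human and mouse, at chr1:202046827-202047026 (hg38) and chr1:135236869-135237068 (mm10).
ELF3 36.2 kb downstream, shared: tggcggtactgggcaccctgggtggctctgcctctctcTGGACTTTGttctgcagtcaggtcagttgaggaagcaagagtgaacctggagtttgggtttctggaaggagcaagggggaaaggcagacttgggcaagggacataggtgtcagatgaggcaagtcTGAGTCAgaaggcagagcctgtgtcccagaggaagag
Elf3 21.3 kb downstream, shared: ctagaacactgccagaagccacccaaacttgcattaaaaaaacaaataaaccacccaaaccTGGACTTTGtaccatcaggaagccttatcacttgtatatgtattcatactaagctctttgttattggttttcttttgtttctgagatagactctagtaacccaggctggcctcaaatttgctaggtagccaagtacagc
The next pair comes from Etv1, the locus where the KPC lists differed throughout, at chr12:38788652-38788951 and chr12:38778771-38778970 (mm10). The intronic piece was chosen inside its region to hold the most matches, and the upstream piece holds none.
Etv1 intron, mets-only: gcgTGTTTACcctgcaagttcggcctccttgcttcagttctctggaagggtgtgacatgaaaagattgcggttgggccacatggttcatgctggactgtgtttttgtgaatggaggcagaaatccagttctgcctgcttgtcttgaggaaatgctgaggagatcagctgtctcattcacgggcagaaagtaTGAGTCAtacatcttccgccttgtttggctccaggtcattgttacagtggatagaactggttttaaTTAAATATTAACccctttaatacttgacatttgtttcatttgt
Etv1 upstream, mets-only: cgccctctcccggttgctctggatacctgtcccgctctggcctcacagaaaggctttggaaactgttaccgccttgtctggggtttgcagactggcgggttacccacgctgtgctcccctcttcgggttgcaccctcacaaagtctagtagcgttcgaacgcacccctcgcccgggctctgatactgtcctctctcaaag
The last 5 are the central 200 bases of the highest-scoring control-only, KO-only and tumor-only region of the loci and of the highest-scoring mets-only regions outside Etv1, at chr11:128458363-128458562 and chr13:41008453-41008652 (hg38) and at chr2:103400828-103401027, chr9:32771177-32771376 and chr16:95652596-95652795 (mm10).
ETS1 3′ flank, control-only: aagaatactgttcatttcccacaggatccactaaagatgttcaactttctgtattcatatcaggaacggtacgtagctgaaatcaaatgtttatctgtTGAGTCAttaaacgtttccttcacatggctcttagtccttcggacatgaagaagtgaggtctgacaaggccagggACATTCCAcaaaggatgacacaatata
ELF1 intron, KO-only: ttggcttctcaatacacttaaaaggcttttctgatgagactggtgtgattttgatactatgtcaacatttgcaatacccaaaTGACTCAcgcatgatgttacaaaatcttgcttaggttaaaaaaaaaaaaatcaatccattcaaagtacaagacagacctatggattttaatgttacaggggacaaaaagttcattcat
Elf5 upstream, mets-only: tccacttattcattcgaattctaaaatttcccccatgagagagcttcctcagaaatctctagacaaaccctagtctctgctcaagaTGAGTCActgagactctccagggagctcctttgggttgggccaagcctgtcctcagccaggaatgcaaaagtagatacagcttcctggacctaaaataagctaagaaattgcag
Ets1 3′ flank, mets-only: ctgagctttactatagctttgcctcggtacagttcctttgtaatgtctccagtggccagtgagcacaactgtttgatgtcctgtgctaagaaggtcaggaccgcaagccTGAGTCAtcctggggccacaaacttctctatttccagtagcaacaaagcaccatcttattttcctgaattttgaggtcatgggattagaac
Ets2 upstream, tumor-only: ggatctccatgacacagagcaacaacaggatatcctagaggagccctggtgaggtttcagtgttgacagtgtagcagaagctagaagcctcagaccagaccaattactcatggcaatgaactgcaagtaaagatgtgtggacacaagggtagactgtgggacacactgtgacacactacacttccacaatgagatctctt
The ETS1 piece holds an AP-1 and a TEAD match, the ELF1, Elf5 and Ets1 pieces hold 1 AP-1 match each, and the Ets2 piece holds none of the letters searched. An AP-1 match was found in the central 200 bases of 19.5% of all control regions, 20.2% of all HNF4G-KO regions and 26.2% of all mets regions. FOXA, AP-1 and HNF1 matches all stood in the Etv1 intronic piece, which was picked for its matches. Over whole regions, FOXA letters were found in 8.90%, AP-1 letters in 36.4% and HNF1 letters in 0.445% of all mets regions.

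Epithelial marker genes were accessible in all 4 lists. All 5 epithelial start sites examined (EPCAM, CDH1, KRT8, KRT18 and KRT19) carried a region in every list, at percentiles from 13.9 to 98.2. Of 6 start sites of immune, endothelial, fibroblast, pericyte and mesenchymal genes, 2 carried a region in both HPAF-II lists. These were COL1A1, at percentile 86.7 in control and 94.1 in HNF4G-KO, and VIM, at 45.9 and 43.8. In both KPC lists 1 did, Vim, at 55.9 and 57.8, above every epithelial marker there but Krt19. Among pancreas and liver genes, PDX1 carried a region in all 4 lists and Apob in both KPC lists, at 86.3 and 76.3. PTF1A, INS (Ins2 in mouse) and ALB carried none, and CPA1 only a weak one in HNF4G-KO, at 14.8. The start site of HNF4G carried a region at percentile 82.4 in control and 82.7 in HNF4G-KO, and an edit inside the gene need not close its start site, so this does not check the knockout.

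Across the 10 loci, loss of regions in HNF4G-KO cells was of the same order as in the whole list. Of 139 control regions, 35 were control-only, or 25.2% (Wilson 95% interval 18.7 to 33.0, which here and below covers counting error only), against 25.0% of all control regions. Weak regions are more often in one list, and a count of 33.7 was what the whole list gave at the same score deciles. Of 114 HNF4G-KO regions, 7 were KO-only, or 6.14% (interval 3.01 to 12.1), against 6.76% of all and 6.36 regions at the same deciles. Control-only regions occurred at 8 of 10 loci and KO-only regions at 6 of 10, and of all genes with any region 83.3% and 40.3% had at least 1. The control-only regions were weak and narrow, at percentiles from 0.094 to 51.5 (median 16.9) and with a median width of 247 bp beside 638.5 bp for shared regions. Only 1 of the 75 control regions at or above percentile 50 was control-only, beside 1.86% of all control regions that strong.

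Most one-list regions lay more than 1 kb from any start site, as did most regions of every whole list. Of 107 control regions more than 1 kb from any start site 29 were control-only (27.1%), beside 28.4% of all such regions, and of 32 promoter regions 6 were (18.8%), beside 14.4%. All 7 KO-only regions were distal, out of 86 (8.14%), beside 7.77% of all, and 0 of 28 promoter regions were KO-only, beside 4.04%. In the KPC pair all 8 tumor-only regions were distal, out of 84 (9.52%), beside 9.56%, and 0 of 26 promoter regions were tumor-only, beside 5.8%. Of 96 distal mets regions 18 were mets-only (18.8%), beside 24.0%, and of 34 promoter regions 5 were (14.7%), beside 9.8%. Of these 5 promoter regions 3 belonged to Etv1.

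**Figure D1:**
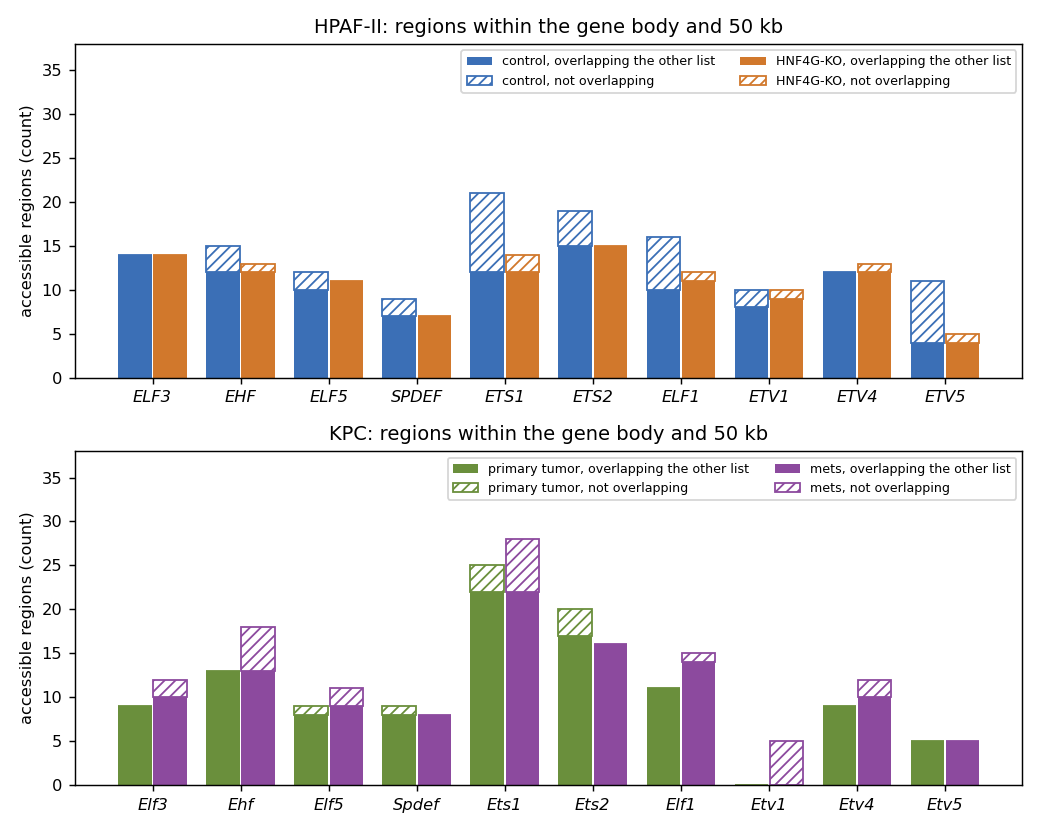
Number of accessible regions at each ETS locus (the gene and 50 kb to either side) in the HPAF-II lists (top) and the KPC lists (bottom). Filled bars are regions that overlap the other list of the pair and hatched bars are regions that do not. All 14 ELF3 regions overlapped, 7 of 11 control regions at ETV5 did not, and Etv1 had 5 regions in mets and 0 in the primary tumor list.

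The 3 groups of loci differed in how many control regions were missing from HNF4G-KO. The epithelial loci had 7 control-only of 50 regions (14.0%, interval 6.95 to 26.2), with 9.93 at the same score deciles. The broadly expressed loci had 19 of 56 (33.9%, 22.9 to 47.0), with 13.7 at the same deciles. The PEA3 loci had 9 of 33 (27.3%, 15.1 to 44.2), with 10.0 at the same deciles. The intervals of the 3 groups overlap, and no test of the differences was possible with 1 list per group.

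ELF3, an epithelial ETS factor gene at chr1:202007945-202017183 (hg38), kept every region. It had 14 regions in control and 14 in HNF4G-KO, all shared, whereas 0.272 control-only regions were given by its score deciles: its regions were strong, with a median percentile of 75.2 in control and 71.5 in HNF4G-KO. The region over its main start site stood at 75.6 in control and 82.2 in HNF4G-KO, and a second start site stood at 62.5 and 59.2. The strongest regions lay beyond the 3′ end. The region 24.4 kb downstream stood at 98.2 in control and 99.5 in HNF4G-KO. The region 46.5 kb downstream stood at 97.9 and 98.7, and the region with the HNF4 match, 36.2 kb downstream, at 95.5 and 97.1. All 3 were slightly higher in rank in HNF4G-KO. Others were lower, on both sides of the gene. Regions 37.9, 27.8 and 10.7 kb upstream stood at 78.1, 89.8 and 67.4 in control and 68.5, 82.0 and 54.5 in HNF4G-KO, and all 3 lay nearest to a start site of the neighboring gene RNPEP, the middle one 184 bp from it. Regions 12.6 and 52.8 kb downstream went from 74.8 to 63.6 and from 62.8 to 52.3. The largest rise at the locus, 54.1 kb downstream, was from 46.5 to 61.8, 1 of the 3 largest rises at the 10 loci.

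EHF, at chr11:34621093-34663288, and ELF5, at chr11:34478791-34525193, are neighboring genes. EHF had 15 control regions, 3 of them control-only at percentiles 8.1, 9.5 and 19.4, and 13 HNF4G-KO regions, 1 of them KO-only at 13.0. Over its start site the region stood at 71.5 in control and 74.8 in HNF4G-KO, and a region over another start site at 35.0 and 28.6. The other HNF4 match of the human loci lay in the control region over the main start site, which is 983 bp wide, and outside the ends of the HNF4G-KO region there, which is 580 bp wide. Its strongest regions, an intronic region at 94.7 and 90.9 and an upstream region at 94.1 and 94.5, were shared. ELF5 had 12 control regions with 2 control-only, at 9.5 and 17.9, and 11 HNF4G-KO regions with none in one list. Its main start site was the one human start site of the 10 with no region over it in either list. The nearest region, 673 bp into the gene, stood at 76.6 and 69.5. A pair of intronic ELF5 regions 12.2 and 11.6 kb downstream were shared but much weaker in HNF4G-KO, at 33.9 and 19.7 in control and 10.2 and 0.35 in HNF4G-KO.

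SPDEF, at chr6:34537802-34556333, a factor of secretory epithelial cells, had 9 control regions with 2 control-only, at 13.1 and 3.2, and 7 HNF4G-KO regions, all shared. Its start-site region stood at 74.0 in control and 58.0 in HNF4G-KO, and an intronic region 8.86 kb downstream at 72.9 and 60.7. At the main start sites, SPDEF was thus lower in rank in HNF4G-KO and ELF3 and EHF were higher.

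ETS1, the founding family member, lies at chr11:128458761-128587558 and had the most control-only regions. Of its 21 control regions, 9 were control-only (42.9%, interval 24.5 to 63.5), with 5.29 at the same score deciles, and of 14 HNF4G-KO regions 2 were KO-only, at percentiles 20 and 13. The main start site carried a control-only region at percentile 21.2. A start site 65.2 kb inside the gene, by contrast, carried a shared region at 98.1 in control and 97.0 in HNF4G-KO. The highest-scoring control-only region of all 10 loci lay at the 3′ end of ETS1, at 51.5, with no HNF4G-KO region within 8610 bp, and its sequence is given above. The strongest ETS1 region, 139 kb downstream of the main start and beyond the gene's 3′ end, stood at 99.8 and 99.5. Of 12 shared regions 11 were lower in HNF4G-KO, with a median change of -5.14 points, beside 70.0% of all shared HPAF-II regions that were lower by any amount. Intronic regions 38.9 and 115 kb downstream moved from 44.1 to 20.4 and from 41.7 to 18.8.

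ETS2, a close relative of ETS1 at chr21:38805183-38824955, had 19 control regions, 4 of them control-only at percentiles from 9.5 to 26.2, and 15 HNF4G-KO regions, all shared. Its start-site region stood at 90.1 and 85.1, and its strongest region, 18.1 kb upstream, at 97.6 and 97.1. The 3′ flank changed more: the region 25.8 kb downstream moved from 79.4 to 50.9, the largest fall of any broad member, and the region 47.7 kb downstream from 85.6 to 64.1. ELF1, at chr13:40931924-41061440, had 16 control regions with 6 control-only, against 5.77 at the same deciles, and 12 HNF4G-KO regions with 1 KO-only. Its control-only regions stood between 0.094 and 24.4. Its 2 start-site regions changed little, from 85.6 to 82.9 at the main start site and from 85.5 to 87.8 at a start site 41.8 kb upstream. The ELF1 intronic region at 27.7 was the highest-scoring KO-only region of the 10 loci.

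ETV5, a PEA3 factor gene at chr3:186046314-186110318, had the highest control-only share. Of 11 control regions 7 were control-only (63.6%, interval 35.4 to 84.8), with 5.39 at the same deciles, since most of its regions were weak. These 7 stood between 0.094 and 28.1, and 1 of them, at 26.0, lay over a start site 1.21 kb upstream of the main one. The start-site region was among the strongest at any of the loci, at 99.5 in control and 99.8 in HNF4G-KO. An intronic region 11.2 kb downstream rose from 34.4 to 50.1, and a region 106 kb downstream fell from 28.1 to 5.2. HNF4G-KO held 5 regions at the locus, 1 of them KO-only at 3.4.

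ETV4, at chr17:43527844-43579620, was the other locus with no control-only region. All 12 control regions were shared, where 1.97 control-only regions were given by the score deciles, and of 13 HNF4G-KO regions 1 was KO-only, at 13.0. Of the 9 loci with 10 or more control regions 2 had no control-only region, beside 6.68% of all genes with that many. Over the main start site of ETV4 the region stood at 88.2 and 92.1. Regions of the locus moved in both directions: a start site 33.1 kb upstream went from 77.2 to 53.5, a start site 15.9 kb downstream from 63.2 to 58.2, a region 62.2 kb upstream from 31.4 to 47.7, and a region 70.6 kb upstream from 42.6 to 3.4. The last of these was the largest fall, and the one before it the largest rise, of the 10 loci in this pair.

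ETV1, at chr7:13891229-13991425, had 10 regions in each HPAF-II list, 2 of them control-only at 8.1 and 21.2 and 1 KO-only at 5.2. All 8 of its shared control regions were lower in HNF4G-KO, beside 70.0% of all shared HPAF-II regions. Their median change was -5.41 points, beside -4.65 over all shared regions. The region over the main start site moved from 52.5 to 18.8, the second largest fall at the 10 loci. The neighboring region over further start sites of the gene stayed strong, at 92.9 and 91.6. So did the strongest region, an intronic one 69.3 kb downstream at 99.5 and 97.2, and another intronic region 8.32 kb downstream with an HNF1 match, at 93.6 and 89.9.

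**Figure D2:**
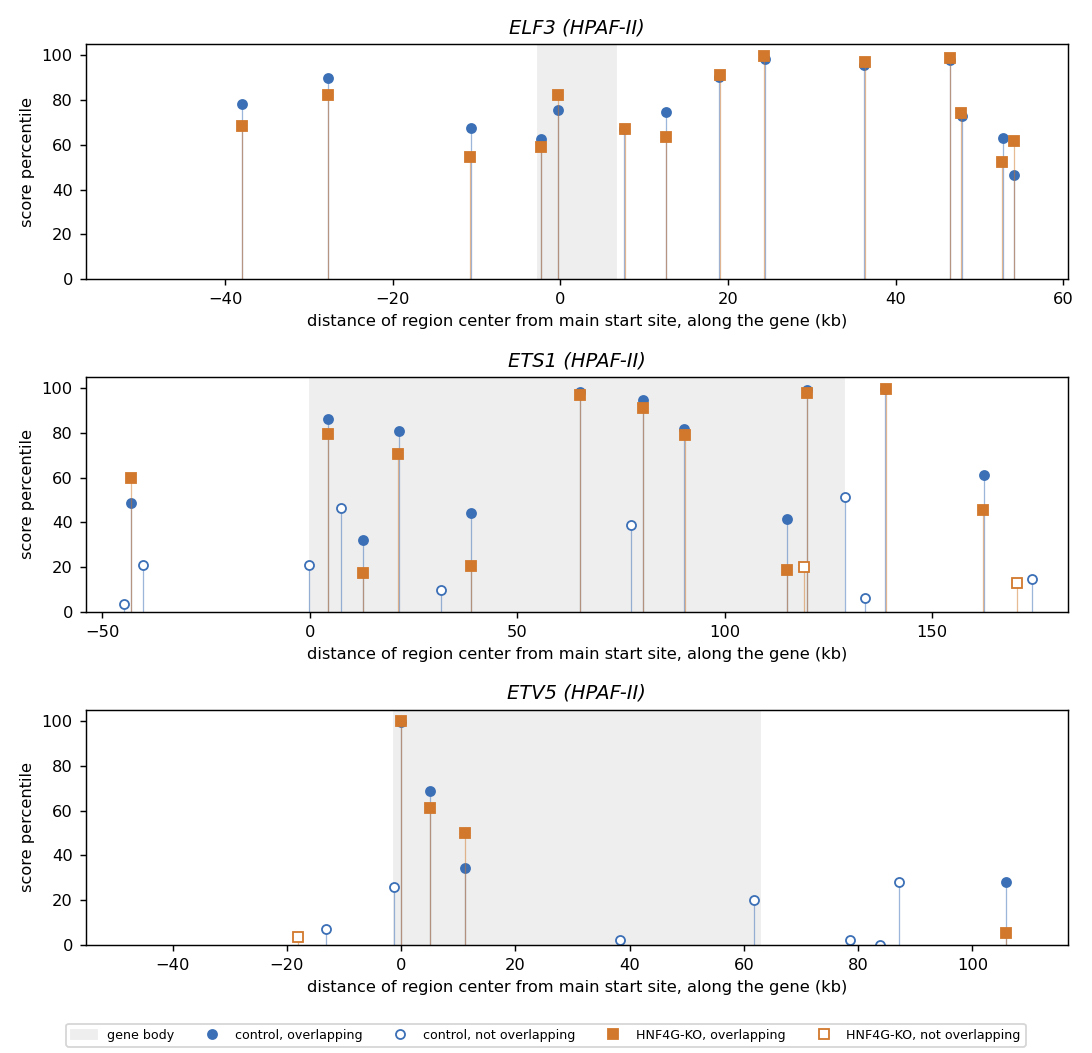
Score percentile of each region at ELF3, ETS1 and ETV5 in HPAF-II control (circles) and HNF4G-KO (squares), by distance of the region center from the main start site along the gene (kb); grey marks the gene body. Open symbols are regions in one list. At ETS1 the 9 control-only regions stood between 3.8 and 51.5, and at ETV5 the start-site region stood at 99.5 and 99.8.

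Over all shared regions of the 10 loci, the median change from control to HNF4G-KO was -2.90 points (95% interval of the median -5.02 to -1.07, n = 104 regions), beside -4.65 over all shared regions. Of the 104, 74 were lower in HNF4G-KO, beside 70.0% of all. By 10 or more points 27 were lower, beside 33.6% of all, and 4 were higher, beside 7.75%. The direction of this shift depended on what was ranked. Control regions shared with HNF4G-KO had a median percentile of 62.1 in their list and HNF4G-KO regions shared with control 53.3, since the control list holds more weak one-list regions below them. With shared regions alone ranked, the median change at the 10 loci was 0.48 points and over all shared regions 0.68. On that scale the median change was -2.65 points for the 12 ETS1 regions, -2.31 for the 8 ETV1 regions and 0.10 for those of ETS2. The start-site fall of ETV1 was -22.7 points and the largest ETV4 fall -24.1 on the same scale. Of 26 shared regions at or above percentile 90 in control, 22 were also there in HNF4G-KO, beside 72.9% of all such regions.

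**Figure D3:**
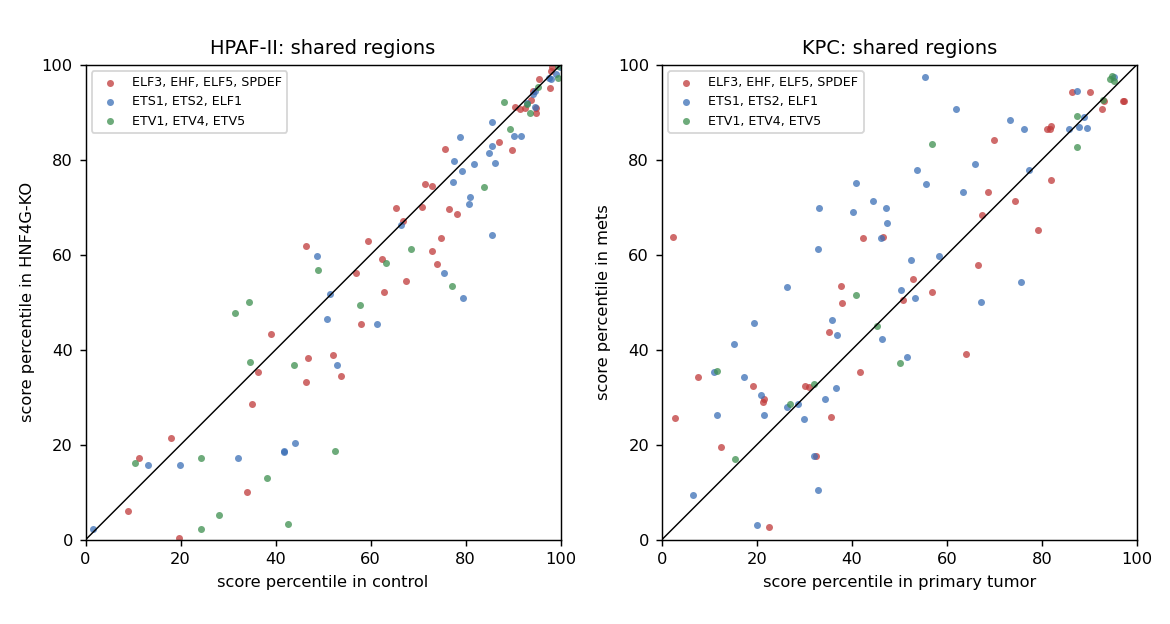
Score percentile of each shared region at the 10 loci in the first list (x axis) and the second list (y axis) of the HPAF-II pair (left) and the KPC pair (right), colored by group of loci; the line marks equal percentiles. Of the 104 HPAF-II regions 74 lie below the line, and of the 102 KPC regions 33 do, beside 70.0% and 35.1% of all shared regions.

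In the KPC pair the whole-list imbalance ran the other way, toward more regions in mets, and the ETS loci again stood close to it. Of 130 mets regions 23 were mets-only (17.7%, interval 12.1 to 25.2), against 20.2% of all mets regions and a count of 25.5 at the same score deciles. Of 110 primary tumor regions 8 were tumor-only (7.27%, interval 3.73 to 13.7), against 8.51% of all and a count of 8.69. Mets-only regions occurred at 7 of 10 loci and tumor-only regions at 4 of the 9 loci with any primary tumor region, beside 71.0% and 43.6% of all genes. The epithelial loci had 9 mets-only of 49 regions (10.4 at the same deciles), the broadly expressed loci 7 of 59 (11.5) and the PEA3 loci 7 of 22 (3.56). Of the 7 at the PEA3 loci 5 belonged to Etv1, and without the Etv1 locus the mets-only share of the rest was 14.4%.

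Etv1, a PEA3 factor gene at chr12:38779380-38870484 (mm10), was the locus where the KPC lists differed throughout. The primary tumor list held no region there. The mets list held 5, and all 5 were mets-only, where the score deciles gave 0.857. The region 1.21 kb upstream of the main start site stood at percentile 76.9, a region over another start site at 3.5 and the region over the main start site at 33.7. An intronic region 8.66 kb downstream stood at 87.0 and an intronic region 63.9 kb downstream at 76.9. Of all 35 member regions at or above percentile 75 in mets, these 3 strong Etv1 regions were the mets-only ones, beside 1.43% of all mets regions that strong. Of the 10 loci, each with 5 or more mets regions, 1 had no primary tumor region, beside 0.388% (57 genes) of the 14697 genes with that many.

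The absence reached well past the gene. No primary tumor region lay between chr12:37231513 and chr12:39510012, a stretch of 2278.5 kb that holds Agmo, Dgkb and Etv1. The mets list had 11 regions in it, all mets-only, at percentiles from 3.5 to 87.0 (median 42.8), and 6 of them lay outside the Etv1 locus. By mets regions it ranked 32 of 10929 stretches between neighboring primary tumor regions that held at least 1. Stretches of the same length before and after it held 83 and 68 primary tumor regions and 90 and 83 mets regions, so both lists were well filled on each side. Whether the primary tumor line differs here in DNA copy number or in accessibility was not tested, since the lists hold no reads outside regions. In the human pair, in contrast, 8 of the 10 control regions of ETV1 were shared.

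**Figure D4:**
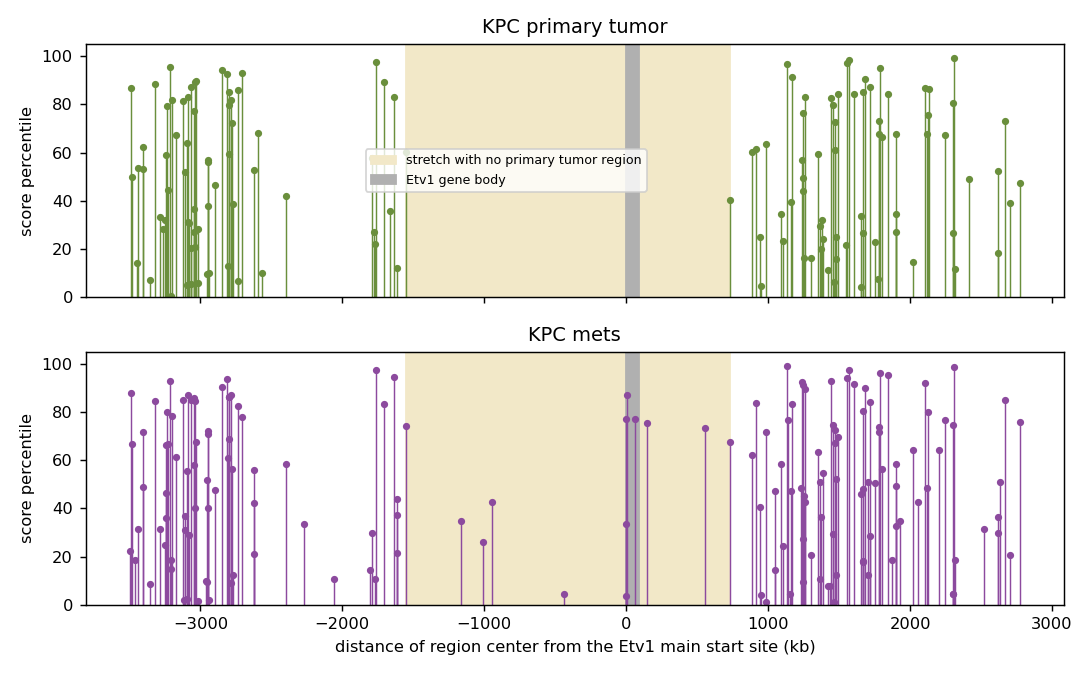
Score percentile of every region around Etv1 in the KPC primary tumor list (top) and the mets list (bottom), by distance of the region center from the Etv1 main start site (kb). The pale band is the 2278.5 kb stretch with no primary tumor region and the grey band the Etv1 gene body; 11 mets regions lie in the pale band.

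The other PEA3 loci had shared start-site regions of high rank. Etv4, at chr11:101769742-101785371, had 9 primary tumor regions, all shared, and 12 mets regions with 2 mets-only, at 22.4 and 35.4. Over its start site it stood at 92.9 in the primary tumor and 92.6 in mets. Etv5, at chr16:22381309-22439719, had 5 regions in each list, all shared. Its start-site region stood at 94.3 and 97.1, and an intronic region 10.6 kb downstream at 94.7 and 97.7. Intronic Etv5 regions 49.1 and 1.18 kb downstream moved from 56.9 to 83.3 and from 11.6 to 35.6.

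Ets1, at chr9:32636221-32757820, had the most regions of the mouse loci, 25 in the primary tumor and 28 in mets, at percentile 99.1 of all genes by their number of primary tumor regions and 89.0 by regions per 100 kb. Of these, 3 were tumor-only, at 6.2 to 15.8, and 6 mets-only, at 0.47 to 44.2. Of its 22 shared regions 17 were higher and 5 lower in mets, beside 35.1% of all shared KPC regions that were lower. By 10 or more points 12 were higher, beside 30.8% of all. The median change was 10.4 points, beside 3.67 over all shared regions. With shared regions alone ranked the median was 8.04 points, beside 0.99 over all shared regions. Intronic regions 34.9 and 53.9 kb downstream moved from 32.8 to 61.2 and from 26.4 to 53.2, while the start-site region stood at 77.2 and 77.8. The human ETS1 locus had moved the other way between its own pair of lists, although the comparisons differ in species and in what separates the cells.

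Elf1, at chr14:79481194-79582494, had 11 primary tumor regions, all shared, and 15 mets regions with 1 mets-only, at 7.1. The median change of its shared regions was 15.1 points and 7 of 11 rose by 10 or more, beside 30.8% of all shared KPC regions. With shared regions alone ranked the median was 13.9, beside 0.99 over all shared regions. Only 4 of the 11 primary tumor regions and 6 of the 15 mets regions lay nearest to a coding start site of Elf1, so most were nearer to other genes. Intronic regions 71.0 and 81.7 kb downstream, both nearer to the start site of Sugt1 than to that of Elf1, moved from 40.2 to 69.0 and from 44.5 to 71.4. At the main start site the primary tumor region, at 46.1, overlapped more than 1 mets region, the longest overlap being with a region at 63.6, while the mets region over the start itself stood at 23.7. A region over another start site, 34.4 kb downstream, went from 73.3 to 88.4.

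Ets2, at chr16:95702075-95721051 had fewer regions in mets than in the primary tumor. It held 20 primary tumor regions with 3 tumor-only, at 25.3, 6.9 and 13.6, and 16 mets regions with 0 mets-only, where the score deciles gave 3.07. The highest-scoring tumor-only region of the 10 loci was its region 49.4 kb upstream. The start-site region stood at 46.3 and 42.3. A region 3.49 kb upstream fell from 32.8 to 10.5 and a region 65.4 kb downstream from 75.6 to 54.2, which were 2 of the 3 largest falls in this pair. Other Ets2 regions rose, from 40.9 to 75.1 at 33.9 kb upstream and from 62.0 to 90.7 at 26.9 kb downstream.

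Among the epithelial loci, Ehf, at chr2:103263433-103303278, had the most mets-only regions. It held 13 primary tumor regions, all shared, and 18 mets regions with 5 mets-only, at 13.3 to 32.6, where the score deciles gave 3.08. One of these lay over the main start site, at 25.1, and ended 135 bp from the nearest primary tumor region. Beside it, primary tumor regions at 2.3 and 46.6 both overlapped 1 mets region at 63.8, so the change of 61.5 points, the largest of the pair, comes from a split region. The Ets2 change from 55.5 to 97.4, 26.5 kb upstream, and the Ets1 change from 33.2 to 69.9, 47.3 kb downstream, were of the same kind. The distal regions 40.6 and 22.2 kb upstream of Ehf rose from 86.4 to 94.2 and from 69.9 to 84.1, and intronic regions 25.3 and 31.6 kb downstream fell from 79.1 to 65.2 and from 97.0 to 92.4.

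Elf3, at chr1:135253575-135258568, had 9 primary tumor regions, all shared, and 12 mets regions with 2 mets-only, at 9.2 and 23.0. Its start-site region stood at 81.8 in the primary tumor and 86.5 in mets, and its strongest region, 10.0 kb upstream, at 90.0 and 94.3. The region 21.3 kb downstream, which holds the HNF4 match shown above, stood at 2.7 in the primary tumor and 25.7 in mets. The region 31.7 kb downstream fell from 64.1 to 39.1, the largest fall in this pair. Elf5, at chr2:103411688-103450989, had 9 primary tumor regions with 1 tumor-only, at 13.1 and 1.4 kb upstream of its main start site, and 11 mets regions with 2 mets-only. A region over another start site, 13.1 kb downstream, stood at 31.0 and 32.1. The mets-only region 10.8 kb upstream of Elf5 stood at 51.1, the highest outside Etv1. Spdef, at chr17:27714352-27728955, had 9 primary tumor regions with 1 tumor-only, at 14.3, and 8 mets regions, all shared. No region of either KPC list covered the main start site of Elf5, which was also bare in both human lists. No KPC region covered any start site of Spdef either, although the human SPDEF start site had one in both lists.

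**Figure D5:**
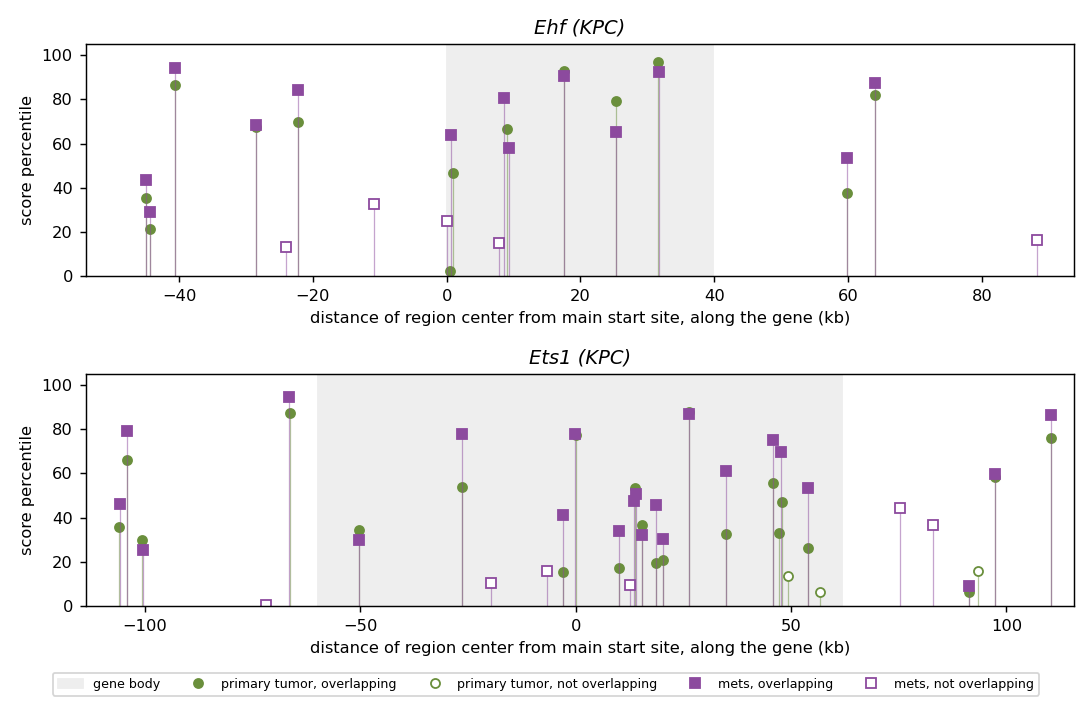
Score percentile of each region at Ehf and Ets1 in KPC primary tumor (circles) and mets (squares), by distance of the region center from the main start site along the gene (kb); grey marks the gene body. Open symbols are regions in one list. Ehf had 5 mets-only regions at 13.3 to 32.6. Of the 22 shared Ets1 regions 17 were higher and 5 lower in mets, beside 35.1% of all shared KPC regions that were lower.

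Over the 102 shared primary tumor regions of the 10 loci the median change to mets was 2.89 points (95% interval 1.38 to 7.02), beside 3.67 over all shared regions. Of the 102, 33 were lower in mets by any amount, beside 35.1% of all shared KPC regions, 34 were higher by 10 or more points, beside 30.8% of all, and 11 lower by 10 or more, beside 12.4%. With shared regions alone ranked the median was 1.14 points and over all shared regions 0.99. All 10 shared regions at or above percentile 90 in the primary tumor were also there in mets, beside 82.4% of all such regions.

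Binding-site letters at the loci were searched over whole regions, on both strands, and none of the shares was tested. AP-1 letters stood in 46 of 139 control regions (33.1%, interval 25.8 to 41.3), beside 31.4% of all control regions, and in 55 of 130 mets regions (42.3%, 34.2 to 50.9), beside 36.4% of all. Most of these control regions were shared: 42 of 104 shared regions held AP-1 letters and 4 of 35 control-only ones, which were narrower and so offered fewer bases. In mets, 44 of 107 shared regions and 11 of 23 mets-only member regions held them. FOXA letters stood in 18 control regions (12.9%, interval 8.35 to 19.5), beside 9.76% of all, and in 12 mets regions (9.23%), beside 8.90%. ETS letters themselves, CCGGAAGT or CAGGAAGT, were found in 7 control regions (5.04%, interval 2.46 to 10.0), beside 8.85% of all, and in 9 mets regions (6.92%), beside 8.55%. HNF4 letters were found in 2 control regions, those of ELF3 and EHF above (1.44% beside 1.60% of all), in 1 HNF4G-KO region and in 1 region of each KPC list, and every region with them was shared. Member regions had a median width of 514 bp in control and 445.5 bp in mets, against 462 and 409 bp in the whole lists, so they offered somewhat more bases to a search.

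The rest of the ETS family and genes that RAS-ERK signaling is known to induce were counted in the same way. Of 195 control regions at the other 18 ETS genes, 42 were control-only, with 42.7 at the same score deciles, and of 163 HNF4G-KO regions 5 were KO-only, with 8.30 at the same deciles, 1 each at ELF4, ELK3, ETV2, ETV6 and ETV7. ERG had the most control-only regions, 9 of 14, with 5.52 at the same deciles. ETV2, ETV6, FLI1 and SPIB followed with 4 each, where the deciles gave 2.63, 5.11, 4.54 and 3.43. In mouse 16 of these genes were found. Of their regions, 37 of 193 in mets were mets-only, with 41.9 at the same deciles, and 9 of 157 in the primary tumor were tumor-only, with 13.5. In each KPC list 2 of these regions, at Fli1, were also counted at the Ets1 locus. Etv6 led both lists, with 10 mets-only of 23 regions and 4 tumor-only of 17, where the deciles gave 5.19 and 2.08. Elf2 followed in mets with 4, beside 3.90 at the same deciles. Elk3, Fev and Spi1 were among those with 3, where the deciles gave 6.63, 1.54 and 1.94. At the 8 RAS-ERK output genes (CCND1, DUSP4, DUSP6, EPHA2, EPHA4, PHLDA1, SPRY2 and SPRY4), 16 of 101 control regions were control-only, with 25.4 at the same deciles, and 14 of 117 mets regions were mets-only, with 26.3. Of their 93 HNF4G-KO regions 3 were KO-only, with 4.72, and of their 104 primary tumor regions 5 were tumor-only, with 11.03. The median change of their shared regions was 0.54 points from control to HNF4G-KO and 5.50 from primary tumor to mets.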

How the data were processed

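ATAC-seq of 16 samples in 4 groups was used as deposited: 1 BED list of regions per group, in which the authors gave every region a score of unstated scale. Per the labels, libraries followed the Omni-ATAC protocol. The submitters' processing notes name Bowtie2 2.2.6, MACS2 2.1.1.20160309, DiffBind and the builds hg38 and mm10. For its ChIP-seq the study aligned with Bowtie2, merged the replicates and called peaks with MACS2. For ATAC-seq, which step each tool served, how replicates were combined and any shift of reads to the insertion site are not given in the sources used here, and the published methods for ATAC-seq describe HPAF-II but not KPC cells. A longer list can reflect stronger or deeper libraries, so a region in one list mixes accessibility with the power to call it. All regions lay inside the chromosomes of hg38 and GRCm38.p6.

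Samples were grouped by title. Loci were taken from GENCODE v44 (human) and vM21 (mouse), with 50 kb on each side. Regions were shared at 1 bp of overlap and paired by the longest overlap. The deposited score was used as a percentile (midrank) within its list. Counts at the same score deciles sum, over member regions, the one-list share of the whole list in each score decile. The main start site was that of the protein-coding transcript tagged Ensembl canonical or, without that tag, ranked first by APPRIS. Ties were settled by transcript support level and then by length. Coordinates are 1-based. No test was possible with 1 list per group, and intervals are Wilson 95% or order-statistic 95%. Overlap calls were tested on simulated data. Decile counts were not tested for subsets of regions, since over a whole list they equal the one-list share by construction. The members and lists were chosen with earlier results of these data known. Named were all 10 members with their start-site regions, the highest-scoring one-list region of each locus and list, the 3 largest falls and rises per pair, and the 3 genes of the rest of the family with most one-list regions per list (ties named in part); other regions and the sequences at ELF3, Elf3 and Etv1 were chosen after their values were seen. Alternatives covered the overlap, score threshold, list size, window, nearest start site and ranking. Python 3.11.15, pandas 2.3.3, NumPy 2.4.6, SciPy 1.17.1, pysam 0.24.0, samtools 1.23.1 and matplotlib 3.10.9 were used.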

Additional observations from a re-analysis of the deposited data

How the results depend on the processing

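No paired analysis was possible because the replicates share numbers across groups but each group has 1 region list, and for the same reason no replicate could be left out. Of 45 values for the 4 one-list shares and the 2 median changes under the alternatives, 38 stayed inside the 95% interval of the value reported. For the median changes, the upper 50% and equal-size settings only left out regions and kept the full-list percentiles. They therefore could not show how unequal lists affect the ranks. With the upper 50% of each list by score the control-only share fell to 12.0%, and with lists of equal size to 13.9%; both leave out weak control regions by construction. With at least 50% of both regions overlapping, the KO-only share was 13.2%, the tumor-only share 14.5% and the mets-only share 27.7%. Whole-list shares under these changed overlap, threshold and size settings were not computed. Whether the loci still stood close to their lists there is therefore not known. With percentiles among shared regions alone, the median change was 0.48 points from control to HNF4G-KO, the opposite sign, and 1.14 from primary tumor to mets. Pairs that match 1 to 1 and the share without the Etv1 locus were added after seeing the data. Single loci hold 0 (Etv1 in the primary tumor) to 28 regions, and of 273 values for their shares 25 left the interval. The scale of the score and the depth behind each list are unknown, so a missing region means not called.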
